A study of Mus musculus with 12 samples.

Results

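RNA of double-positive (DP) thymocytes, which carry both the CD4 and the CD8 co-receptor, was compared between Ikaros-deficient mice and wild-type (WT) mice. The 4 arrays of this comparison, 2 of DP cells from IkL/L mice and 2 of DP cells from WT mice, were taken by their labels from 12 arrays in all. The other 8 arrays hold DN3 and DN4 cells, the precursors without CD4 and CD8 that come before the DP stage, with 2 arrays for each genotype and stage. Every gene is given as IkL/L DP minus WT DP on the log2 scale of the deposited array signal, so that a difference of 1 is a doubling. Of 18194 genes with a probe set of their own, 11649 reached the median of their array on at least 2 of the 12 arrays and were tested.

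IkL/L names mice with both copies of the Ikzf1 gene carrying the L allele, in which a lacZ reporter is inserted into the gene. Some Ikaros protein is still made from it, so these mice are hypomorphs and not nulls, and the allele is present in every cell of the animal and not only in thymocytes. The labels give no treatment and no age for either genotype. Ikaros is a DNA-binding zinc-finger protein of blood cells that recognises a core sequence shared with RBPJ, the DNA-binding partner of Notch, and works with chromatin complexes such as NuRD. In the thymus, Notch signals drive the DN stages and fall off as cells become DP, and Ikaros is known for limiting Notch target genes at that step and for holding back T cell leukaemia in mice.

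Each sort pooled cells of 3 mice. Whether the 2 arrays of a genotype stem from separate sorts is not stated. The p-values measure the spread between arrays, which may be technical for the WT arrays. The 2 IkL/L arrays of each stage differed in Y-linked signal, as given below, so they do not hold RNA of the same pool of mice. Array medians lay between 5.14 and 5.22, and the correlation between replicates was 0.989 for WT DP and 0.992 for IkL/L DP. The 3' minus 5' difference of the Gapdh control probe sets was 3.40 and 3.83 on the WT DP arrays and 3.02 and 3.37 on the IkL/L DP arrays. It was lower on the DN arrays, at 2.01 to 2.73. That of actin was 2.86 and 2.29 against 2.26 and 2.64, and only the actin difference was used as a covariate. The defining DP genes were high in both genotypes: Rag1, the recombinase subunit, read 13.75 and 13.83 in WT and 13.90 and 13.87 in IkL/L, and Cd8a read 12.69 and 13.01 against 12.85 and 12.52. Cd4 read 10.76 and 11.30 in WT and 11.13 and 10.57 in IkL/L. The Y-linked gene Eif2s3y read 9.27 and 9.58 on the WT DP arrays, 9.01 on IkL/L DP replicate 1 and 2.95 on IkL/L DP replicate 2, and replicate 2 of IkL/L was low at DN3 and DN4 too. Kdm5d, also Y-linked, read 7.99 and 8.68 on the WT DP arrays and 8.07 and 3.38 on the IkL/L DP arrays. The IkL/L arrays thus differed in Y-linked signal and so in the sex of their mice, which the labels do not state. The main counts are given with and without the low arrays. In sorted populations such as these, fewer cells of a type and less RNA per cell cannot be told apart.

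Ikzf1 itself fell. It read 12.30 and 12.40 on the WT DP arrays and 11.75 and 11.56 on the IkL/L DP arrays, with no overlap. The difference was -0.70 ± 0.12 (SE, n = 2 arrays in each group, adjusted p = 0.00454 by limma), which left 61.7% of the WT signal, and similar differences of -0.65 and -0.63 were called at DN3 and DN4. The call was lost without IkL/L DP replicate 2 (adjusted p = 0.0539). The second Ikzf1 probe set, at 6.23 and 6.12 in WT and 5.80 and 6.09 in IkL/L, did not pass. Among the other 4 family members, Ikzf2 (Helios) read 11.16 and 10.96 in WT and 11.77 and 11.66 in IkL/L, a difference of 0.65 ± 0.14 (adjusted p = 0.013) that was lost without WT DP replicate 2 (0.0701), IkL/L DP replicate 1 (0.106) or IkL/L DP replicate 2 (0.0503). Ikzf3, Ikzf4 and Ikzf5 were not called.

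The RefSeq promoters of 4 genes are shown as examples of windows that hold TGGGAA, the core shared by Ikaros and RBPJ, and they were chosen because they hold it. Each is the first window listed for the gene, 300 bases at an annotated start on GRCm38.p6, printed 5′ to 3′ along the gene, with TGGGAA or its reverse complement TTCCCA in capitals. Sertad4 had the largest rise, Syt14 rose in DP cells with no call at the DN stages, Ptcra is a Notch target of the DN stages, and Slc6a19 fell. They lie at chr1:192855703-192856002 (minus strand), chr1:193035726-193036025 (minus strand), chr17:46763663-46763962 (minus strand) and chr13:73692587-73692886 (minus strand).
Sertad4: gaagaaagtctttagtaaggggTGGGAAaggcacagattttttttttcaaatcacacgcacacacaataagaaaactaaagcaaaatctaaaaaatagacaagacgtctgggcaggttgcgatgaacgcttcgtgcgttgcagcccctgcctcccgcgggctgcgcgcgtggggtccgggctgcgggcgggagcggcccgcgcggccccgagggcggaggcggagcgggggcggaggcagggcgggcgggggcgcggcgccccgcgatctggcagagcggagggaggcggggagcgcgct
Syt14: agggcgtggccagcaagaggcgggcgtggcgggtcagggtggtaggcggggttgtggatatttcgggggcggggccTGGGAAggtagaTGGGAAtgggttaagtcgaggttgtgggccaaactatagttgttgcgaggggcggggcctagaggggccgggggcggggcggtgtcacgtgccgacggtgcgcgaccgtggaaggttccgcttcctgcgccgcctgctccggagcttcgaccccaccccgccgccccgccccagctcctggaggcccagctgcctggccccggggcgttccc
Ptcra: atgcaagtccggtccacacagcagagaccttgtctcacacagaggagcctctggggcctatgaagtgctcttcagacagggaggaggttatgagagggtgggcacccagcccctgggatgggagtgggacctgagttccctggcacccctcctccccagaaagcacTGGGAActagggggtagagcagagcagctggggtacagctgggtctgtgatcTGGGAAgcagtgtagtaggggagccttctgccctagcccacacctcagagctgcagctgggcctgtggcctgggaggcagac
Slc6a19: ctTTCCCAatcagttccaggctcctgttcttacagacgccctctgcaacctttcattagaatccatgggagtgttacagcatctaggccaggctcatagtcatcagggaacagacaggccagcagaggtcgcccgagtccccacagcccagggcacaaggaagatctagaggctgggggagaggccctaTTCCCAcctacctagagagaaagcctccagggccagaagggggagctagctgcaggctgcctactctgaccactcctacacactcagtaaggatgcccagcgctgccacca
The Sertad4 window held 1 match and the other 3 windows 2 each. Most of the other windows had none: of the first windows found for the largest rises 9 of 24 held the core, and of those for the largest falls 3 of 12. The first windows of Mmp14, Ddr1, Klf9, Irs1, Dtx1 and Ikzf1 held no match. On either strand the core was in 148 of 537 promoters of genes called higher in IkL/L DP cells (27.6%, some genes having several), in 62 of 207 of genes called lower (30%), in 2760 of 12047 of all tested genes (22.9%) and in 8397 of 32851 promoters of the table (25.6%). Promoters were found for 410 of the 508 higher and 144 of the 189 lower genes, and no other motif was searched. A match shows only that these letters are in the window.

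In DP cells 697 genes passed the test, 5.98% of those tested. Of these, 508 were higher in IkL/L (4.36%) and 189 lower (1.62%), and the rises were also larger: 234 rises and 61 falls reached 1 on the log2 scale, and 49 rises and 3 falls reached 2. Over all tested genes the median difference was 0.03, and in 43.9% of them both arrays of a genotype lay above both of the other, higher in IkL/L for 26.0% and lower for 18.0%. With 2 arrays a group, arrays that do not overlap are common, and the statements on overlap below are descriptions of the single genes. Of the 508 raised genes, 89 were under the median of both WT DP arrays, and 73 of these went from below the median in WT to at or above it on both IkL/L arrays. Signal below the median may be mostly background, so a rise from there is a lower limit of the change in RNA. Of these 73, 11 passed the filter through the IkL/L DP arrays alone, and 5 lowered genes did so through the WT DP arrays alone.

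The count of called genes moved with single arrays. It was 392 (316 higher, 76 lower) without IkL/L DP replicate 1, 447 (327 and 120) without IkL/L DP replicate 2, 523 (337 and 186) without WT DP replicate 1 and 683 (572 and 111) without WT DP replicate 2. Without the 3 IkL/L arrays low in Y-linked signal it was 491 (357 and 134), of which 417 were among the 697. Fitted on the 4 DP arrays alone it was 344, and 334 of those were among the 697. Other probe sets gave a second reading of 323 of the called genes: of 513 such probe sets 478 had the sign of the gene's own, 148 were called the same way and 0 the opposite way in limma, where 3.66% of 20865 probe sets were called.

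**Figure D1:**
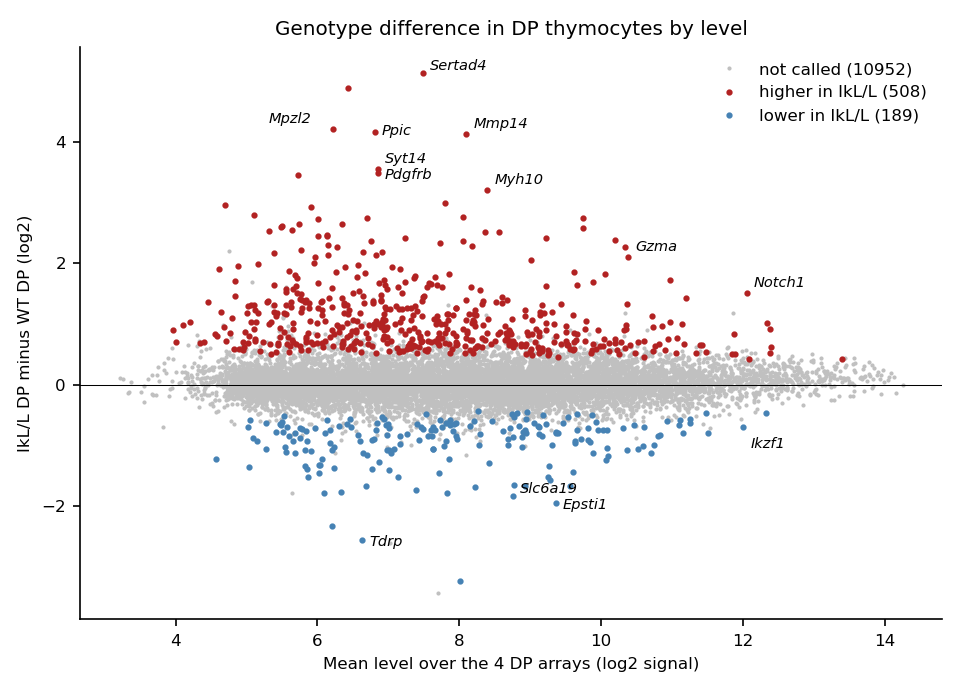
Each point is 1 of 11649 tested genes, placed by its mean level over the 4 DP arrays (log2 signal) and by IkL/L DP minus WT DP (log2). The 508 red points (called higher) reach from low to high levels and rise to 5.14 for Sertad4, while the 189 blue points (called lower) seldom pass -2.

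The largest rise was that of Sertad4, a SERTA-domain gene linked to transcriptional control. It read 4.51 and 5.32 on the WT arrays and 10.19 and 9.93 on the IkL/L arrays, from background to a clear signal, a difference of 5.14 ± 0.26 (SE, adjusted p = 5.82e-07) or 35.3-fold. Mpzl2, an adhesion molecule of the thymus, went from 4.24 and 3.96 to 8.44 and 8.21 (18.7-fold, adjusted p = 1.07e-07). Ppic, which encodes cyclophilin C, went from 4.83 and 4.62 to 8.76 and 9.02 (17.9-fold). All 3 sets of arrays lay far apart, and each gene was near or below the array median in WT. Mmp14, a membrane-bound matrix metalloproteinase, went from 5.66 and 6.41 to 10.11 and 10.23 (17.6-fold). Syt14, of the synaptotagmin family, went from 5.0 and 5.14 to 8.52 and 8.73 (11.7-fold).

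Other named rises followed. Pdgfrb, a receptor for platelet-derived growth factor, read 4.76 and 5.45 in WT and 8.23 and 8.97 in IkL/L (11.3-fold), and Ddr1, a collagen receptor kinase, 5.91 and 6.68 against 9.06 and 9.53 (7.98-fold). Myh10, a non-muscle myosin heavy chain, went from 6.62 and 6.96 to 10.14 and 9.86 (9.26-fold). The Krüppel-like factor Klf9 went from 6.50 and 6.85 to 9.56 and 9.33, a 6.82-fold rise, and 2 more of its probe sets were called with differences of 2.02 and 2.16. Irs1, the insulin receptor substrate, rose 5.79-fold from 4.08 and 4.01 to 6.60 and 6.56. The paired membrane genes Tmem176a and Tmem176b rose 5.71-fold and 5.97-fold, and the tetraspanin gene Cd9 5.49-fold. Lrp1, a large endocytic receptor, went from 4.90 and 4.89 to 7.80 and 6.94. The remaining named rises were those of Pwwp3b (2.96), Tceal8 (2.93), the histone reader Spin4 (2.80), the matrix gene Matn2 (2.75), Bex1 (2.75), Ptgfrn (2.65), Sash1 (2.62), Trim2 (2.61), the lipase gene Liph (2.56) and the sodium channel subunit gene Scn2b (2.43), each as a log2 difference.

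Of the 30 largest rises, 29 kept their call under every alternative in which the gene was tested (21 to 23 alternatives a gene). The exception was Cd163l1, a scavenger receptor gene of gamma-delta T cells, which read 4.68 and 3.33 in WT, 5.56 on IkL/L DP replicate 1 and 9.35 on IkL/L DP replicate 2. Its difference of 3.45 ± 0.87 (adjusted p = 0.0369) rested on that last array: without it the difference was 1.55 (0.132), without WT DP replicate 1 it was 4.13 (0.0558), and without WT DP replicate 2 it was 2.77 (0.168). Probe sets of some risers disagreed. Ddr1 had another at 3.51 and 3 between -0.01 and 0.17, Mpzl2 others at 3.13 and 0.38, Mmp14 others at 1.32 and 0.39, and Pdgfrb another at 0.62.

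**Figure D2:**
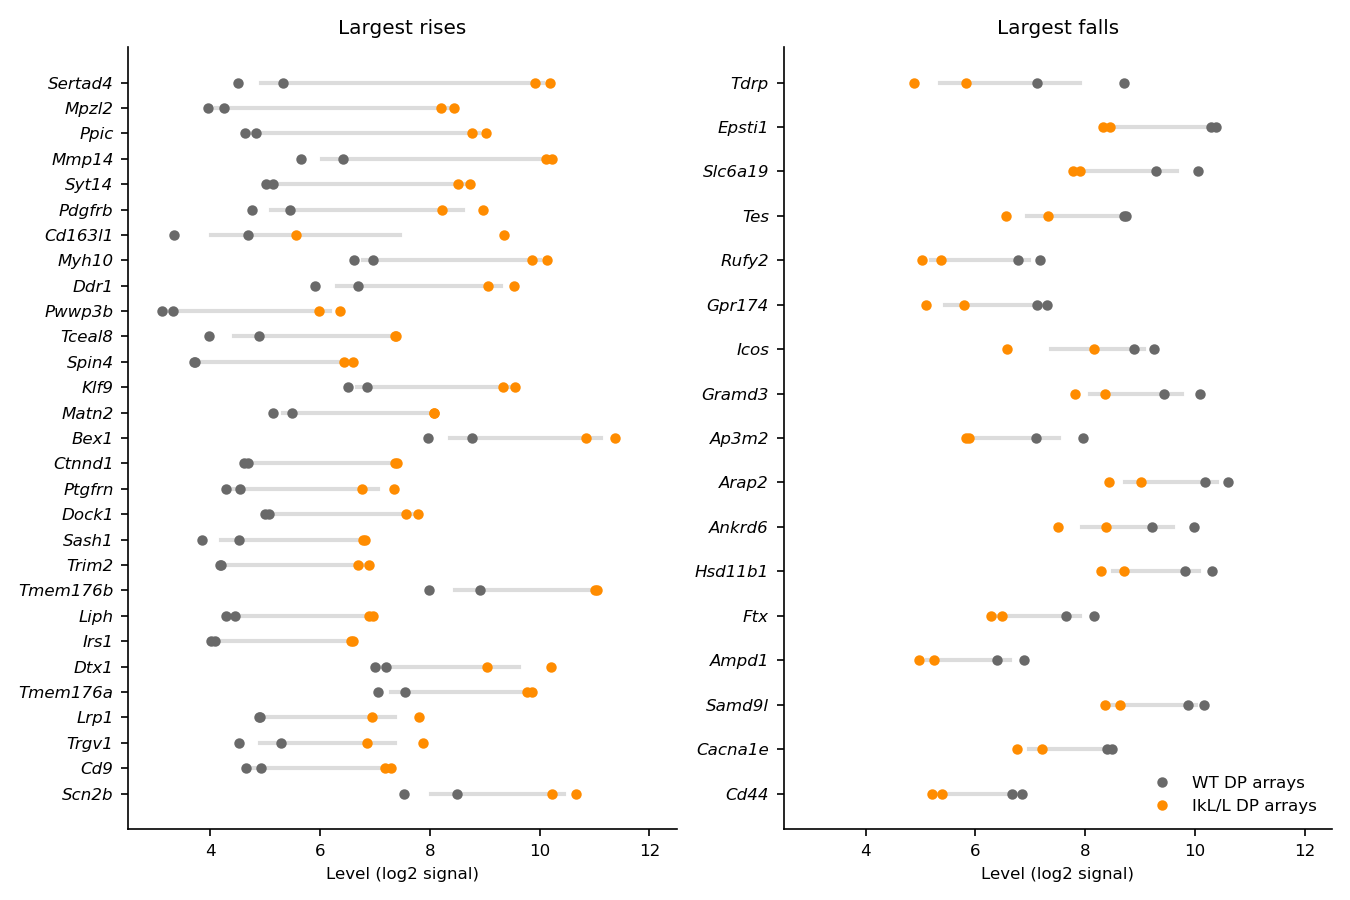
Levels (log2 signal) of the named genes with the largest rises (left) and falls (right) on the single DP arrays, with 2 WT arrays in grey, 2 IkL/L arrays in orange and a bar between the group means. The groups are well apart for nearly every gene, as for Sertad4 (4.51 and 5.32 against 10.19 and 9.93), while the 2 IkL/L arrays of Cd163l1 lie at 5.56 and 9.35.

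The falls were smaller, and the named ones began above the array median on both WT arrays. Tdrp went from 7.13 and 8.70 in WT to 4.87 and 5.82 in IkL/L, a difference of -2.57 ± 0.40 (adjusted p = 0.00205). Epsti1, an interferon-inducible gene, went from 10.38 and 10.29 to 8.32 and 8.45 (-1.95), and other probe sets of it fell by 3.02 and 2.39. Slc6a19, a neutral amino acid transporter gene, went from 9.29 and 10.06 to 7.77 and 7.91 (-1.83). The 2 genotypes did not overlap for any of them. Gpr174, a receptor for lysophosphatidylserine on lymphocytes, went from 7.30 and 7.12 to 5.09 and 5.80 (-1.77). It was the only called gene among 8 tested chemokine and migration receptors, where 5.98% of all tested genes were called. A single call in so short a list is not a result about these receptors.

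Among the other named falls, Tes, of focal adhesions, fell by 1.79, the small GTPase regulator gene Arap2 by 1.67, the adaptor subunit gene Ap3m2 by 1.68, Rufy2 by 1.78 and Gramd3 by 1.68. Hsd11b1, which regenerates active glucocorticoid, went from 9.83 and 10.31 to 8.28 and 8.71 (adjusted p = 0.00291), and Ampd1, the AMP deaminase gene, from 6.38 and 6.88 to 4.97 and 5.25 (adjusted p = 0.000238). The antiviral gene Samd9l fell by 1.52, the calcium channel gene Cacna1e by 1.46 and the noncoding RNA gene Ftx of the X-inactivation centre by 1.53. The adhesion receptor gene Cd44 went from 6.66 and 6.85 to 5.20 and 5.40 (adjusted p = 0.00126), and its other probe set had a difference of -0.89 that was not called. Icos, a co-stimulatory receptor gene, read 8.88 and 9.26 in WT and 6.58 and 8.17 in IkL/L, and its call (adjusted p = 0.0246) was lost without WT DP replicate 1 (0.0602), WT DP replicate 2 (0.112) or IkL/L DP replicate 1 (-0.90, 0.138). Ankrd6 had a difference of -1.66 whose call was lost without WT DP replicate 2 (0.0703) or IkL/L DP replicate 1 (0.103), and the other 18 of the 20 largest falls kept theirs. Of the other probe sets of Ap3m2, 1 was at 0.12.

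Some Notch pathway genes rose in DP cells. The gene lists were chosen with earlier results of these data known, so shares within them are descriptions only. Of 19 tested receptor and machinery genes, 2 were called higher and 0 lower, both receptors, with a median difference of 0.02. Of 12 tested Notch targets 5 were higher and 0 lower (41.7% called, median 0.47, against 5.98% called and a median of 0.03 over all tested genes). In limma 1 target, and no machinery gene, had an unadjusted p under 0.05 in the lower direction. Notch1 read 11.29 and 11.31 in WT and 12.84 and 12.77 in IkL/L, a rise of 1.50 ± 0.15 (adjusted p = 9.81e-05), with another probe set at 1.07. Notch3, which is both a receptor and a target, read 8.36 and 8.26 against 9.15 and 9.13, and its call (adjusted p = 0.00611) was lost without IkL/L DP replicate 1 (0.0501) and with the mean of its probe sets (0.125). The ligand gene Dll1 was measured at 5.05 and 5.43 against 5.29 and 5.15.

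Among the targets, Ptcra, the pre-T cell receptor alpha chain, read 8.06 and 8.76 in WT and 10.03 and 10.05 in IkL/L, a rise of 1.63 ± 0.19 (adjusted p = 0.00027). Dtx1, the Notch regulator Deltex, went from 7.0 and 7.20 to 9.04 and 10.21 (2.53 ± 0.31), though its other probe set was at -0.24. Igf1r, the insulin-like growth factor receptor gene, went from 7.32 and 7.98 to 8.93 and 9.11 (1.37). Myc went from 5.82 and 6.20 to 6.87 and 7.52 (1.18, adjusted p = 0.00871), a call lost without WT DP replicate 1 (0.0701) or IkL/L DP replicate 2 (0.0887). The groups did not overlap for these 4 genes. Some other targets were not called. Hes1 read 5.30 and 5.18 in WT and 5.70 and 6.05 in IkL/L, without overlap (adjusted p = 0.186 by limma). Nrarp differed by 0.10, Hey1 by -0.13 and Hes5 by -0.35.

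Notch1, Ptcra and Dtx1 are also on the list of genes that mark the DN stages. The 20 DN-stage genes had a summed level (log2 of the summed signal) of 14.23 and 14.34 on the WT DP arrays and 14.66 and 14.72 on the IkL/L DP arrays. Of 19 tested members 3 were called higher (Ptcra, Notch1, Dtx1) and 1 lower (Cd44), where 4.36% of all tested genes were called higher and 1.62% lower. The median difference of the 19 was -0.04, and 5 of 20 were below the array median on all 4 DP arrays. Il2ra, the receptor chain that defines DN3 cells, read 4.80 and 5.12 in WT and 4.56 and 5.07 in IkL/L, below the array median on all 4 arrays, and Kit, of earlier precursors, 5.42 and 5.20 against 5.63 and 5.69.

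**Figure D3:**
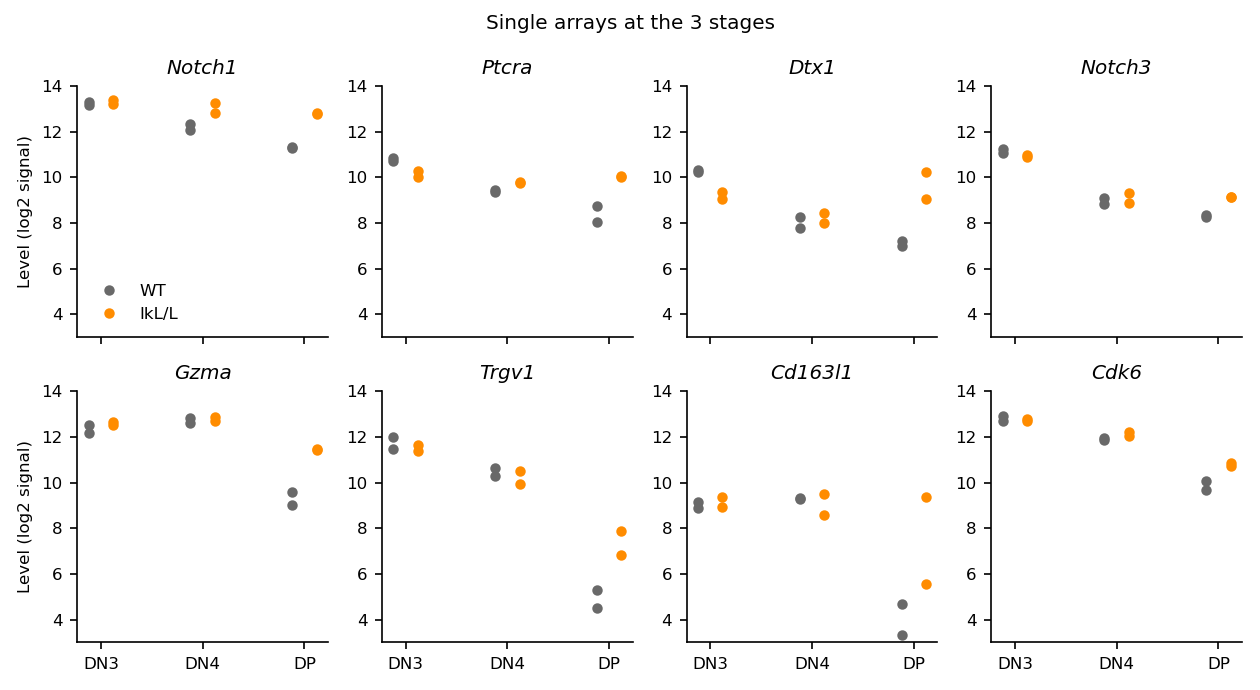
Levels (log2 signal) of 8 genes on each of the 12 arrays, with 2 WT arrays in grey and 2 IkL/L arrays in orange at the stages DN3, DN4 and DP. On the WT arrays all 8 are lower at DP than at DN3, and the IkL/L DP arrays lie above the WT DP arrays, as for Gzma (9.61 and 9.04 in WT DP, 11.41 and 11.46 in IkL/L DP).

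A few genes of gamma-delta T cells and cytotoxic cells were also among the rises. Of 12 tested members of that list 3 were called higher (Gzma, Cd163l1 and Tbx21) and 1 lower (Prf1). Among all tested genes 4.36% were called higher and 1.62% lower. Gzma, the gene of granzyme A, read 9.61 and 9.04 in WT DP and 11.41 and 11.46 in IkL/L DP, a rise of 2.11 ± 0.19 (adjusted p = 3.74e-05), and it was at 12.51 and 12.16 in WT DN3. Trgv1, which is not on the list and was named for its rise, is a variable segment of the gamma chain locus that may share sequence with related segments. It went from 5.29 and 4.53 to 6.85 and 7.88 (2.46 ± 0.34, adjusted p = 0.00095) and was at 12.01 and 11.48 in WT DN3. Cd163l1, described above, was at 9.17 and 8.91 in WT DN3. Tbx21 differed by 0.85, a call lost without WT DP replicate 1 (0.0777) or IkL/L DP replicate 1 (0.145), and the perforin gene Prf1 by -0.79, lost without WT DP replicate 2 (0.113) or IkL/L DP replicate 1 (0.167). The summed level of the list, in which Gzma is the brightest member, was 10.39 and 10.09 in WT and 11.67 and 11.99 in IkL/L, while the mean of its members' log2 levels was 4.95 and 4.84 against 4.99 and 5.40, and 9 of 20 members were below the median on all 4 arrays. Other defining genes did not follow: Sox13 read 5.25 and 5.66 against 5.55 and 5.92, Zbtb16 5.15 and 4.99 against 4.94 and 5.26, and Nkg7 5.31 and 5.09 against 5.07 and 5.34. The part of gamma-delta cells in these values was not tested.

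Some receptor kinase and adhesion genes rose, where 4.36% of all tested genes were called higher and 1.62% lower. Of 29 tested receptor tyrosine kinase genes 4 were higher and 0 lower (also 0 at an unadjusted p under 0.05 in limma): Pdgfrb, Ddr1, Igf1r and Erbb3, which went from 6.78 and 6.77 to 8.05 and 7.81 (1.16 ± 0.13, adjusted p = 0.00024). Of 11 tested cadherin, catenin and other adhesion genes 3 were higher and 0 lower (0 at an unadjusted p under 0.05 in limma). They were Mpzl2, which is neither a cadherin nor a catenin, and the catenin genes Ctnnd1 and Ctnna1. Ctnnd1 (p120 catenin) went from 4.62 and 4.68 to 7.39 and 7.36. Ctnna1 (alpha-catenin) went from 9.95 and 10.27 to 11.79 and 11.87 (1.72 ± 0.14, adjusted p = 2.23e-05 by limma). Mmp14 was the only gene called among 13 tested metalloproteinases and inhibitors, and Itgb1 among 16 integrins, shares near that of all genes. Itgb1 differed by 0.73 (adjusted p = 0.0274), and its call was lost when any single DP array was left out, at 0.118, 0.0564, 0.107 and 0.147. Actin and myosin genes went both ways, with 4 higher and 3 lower of 30. Vinculin (Vcl), which links integrins and cadherins to actin, went from 5.61 and 5.56 to 7.53 and 7.60 (1.98 ± 0.13), Tagln2 from 8.34 and 8.13 to 9.09 and 9.08 (0.85), and the Rac activator gene Dock1 from 4.99 and 5.06 to 7.56 and 7.78. The lower members were Tes, the gelsolin gene Gsn (-1.24, lost without WT DP replicate 2 at 0.0969 or IkL/L DP replicate 1 at 0.127) and Tpm4 (-0.63, lost without WT DP replicate 1 at 0.0824, WT DP replicate 2 at 0.11 or IkL/L DP replicate 1 at 0.277).

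Interferon-response genes moved in both directions, with 5 called higher and 1 lower of 31 tested, 24 differences above 0 and a median of 0.36. Over all 11649 tested genes 5.98% were called, 6338 differences were above 0 and the median was 0.03. Usp18, a negative regulator of interferon signalling, read 5.72 and 6.44 in WT and 7.93 and 8.10 in IkL/L (1.93 ± 0.21, adjusted p = 0.000137). The RNA sensor gene Ifih1 went from 7.35 and 7.44 to 8.65 and 8.94 (1.40), the GTPase gene Irgm1 from 6.55 and 7.03 to 8.04 and 8.30 (1.38), and Bst2 (tetherin) from 6.23 and 6.69 to 8.0 and 7.50 (1.29). Oas1a differed by 0.67, a call lost without WT DP replicate 2 (0.101), IkL/L DP replicate 1 (0.136) or IkL/L DP replicate 2 (0.06). Epsti1 went the other way, as given above. MHC class II genes were likewise split: H2-Ab1 read 6.30 and 5.88 against 7.56 and 7.38 (1.38, adjusted p = 0.00109) with a second probe set at 0.15 and the call lost with the mean of its probe sets (0.59, 0.0586), H2-Oa 7.44 and 7.67 against 8.75 and 8.70 (1.17), and H2-Ob 5.65 and 5.78 against 4.26 and 4.45 (-1.36, adjusted p = 0.001). H2-Aa and Cd74, the partners of H2-Ab1 in antigen presentation, read 7.06 and 6.45 against 5.84 and 7.45, and 6.42 and 6.13 against 5.88 and 6.49, and were not called. Of the 11 tested dendritic cell and class II genes 3 were higher and 2 lower. The calls of Tcf4 (0.67) and Irf8 (-0.65) were each lost without a DP array: Tcf4 without WT DP replicate 1 (0.0748) or IkL/L DP replicate 1 (0.0562) or 2 (0.121), Irf8 without any of the 4 (0.0684, 0.108, 0.2 and 0.0711).

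Most cell cycle genes were not called. Over all 11649 tested genes 4.36% were called higher and 1.62% lower, 6338 differences were above 0, and 1403 genes were higher and 745 lower at an unadjusted p under 0.05. All 25 tested mitosis genes had a difference above 0, from 0.16 to 1.20, with a median of 0.46, and 5 were called higher and 0 lower (15 and 0 at an unadjusted p under 0.05 in limma). Ube2c, the ubiquitin-conjugating enzyme of the anaphase-promoting complex, led with 8.72 and 8.71 against 10.14 and 9.69 (1.20, adjusted p = 0.00544), a call lost without IkL/L DP replicate 1 (0.07). Nusap1 (0.69), Cenpf (0.59), Cenpa (0.56) and Cdc20 (0.52) passed narrowly and lost their calls under 14 to 17 of 23 alternatives, with adjusted p of 0.351, 0.287, 0.324 and 0.241 without IkL/L DP replicate 1. Of 25 DNA replication genes 0 were called (7 higher and 0 lower at an unadjusted p under 0.05), with a median of 0.31. Of 20 G1 regulators 3 were higher and 0 lower (5 and 1 unadjusted). They were the inhibitor genes Cdkn1c, from 5.61 and 6.02 to 7.66 and 7.07 (1.55), and Cdkn1a (p21), from 6.76 and 6.30 to 7.99 and 7.55 (1.24), and the kinase gene Cdk6, from 10.09 and 9.70 to 10.75 and 10.88 (0.92). Of 21 apoptosis genes 2 were higher and 0 lower (4 and 2 unadjusted), the pro-death gene Pmaip1 (Noxa), from 4.54 and 4.66 to 6.03 and 5.92, and the pro-survival gene Bcl2l2, from 6.44 and 6.47 to 7.57 and 7.23.

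The core T cell programme showed few calls, where 5.98% of all tested genes were called. Of 24 DP-stage genes 0 were higher and 1 lower (1 and 2 at an unadjusted p under 0.05 in limma), the receptor gene Ly9, from 7.64 and 7.58 to 6.28 and 6.67 (-1.14). Of 27 T cell receptor signalling genes 0 were called (2 higher and 1 lower unadjusted), of 12 V(D)J recombination genes 0 (2 and 0), and of 20 positive-selection genes only Icos (0 and 1). Runx1 was the only called gene of 28 T-lineage transcription factors, at 10.08 and 9.63 in WT and 10.81 and 10.86 in IkL/L (0.98), while its other 5 probe sets lay between 0.19 and 0.44. Of 32 cytokine genes, Socs3 (0.71, lost without WT DP replicate 1 at 0.183 or IkL/L DP replicate 2 at 0.29) and Il4ra (-0.76, lost without IkL/L DP replicate 1 at 0.0967) were called. Of 17 glycolysis genes 1 was higher (Slc16a1, 0.63, lost without WT DP replicate 1 at 0.196, IkL/L DP replicate 1 at 0.171 or 2 at 0.165) and 1 lower (Pdk1, -0.59, lost without WT DP replicate 1 at 0.0885, WT DP replicate 2 at 0.0682 or IkL/L DP replicate 1 at 0.226). Of 29 Polycomb genes Pcgf3 was lower (-0.48), a call lost without any of the 4 DP arrays (0.0618, 0.0949, 0.139 and 0.132). The 13 NuRD genes (1 and 1 unadjusted), the 17 stem and progenitor genes (1 and 1), the 12 tested of 40 measured Hox and developmental genes (0 and 0) and the 17 handling-stress genes (1 and 2) had 0 calls in limma.

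**Figure D4:**
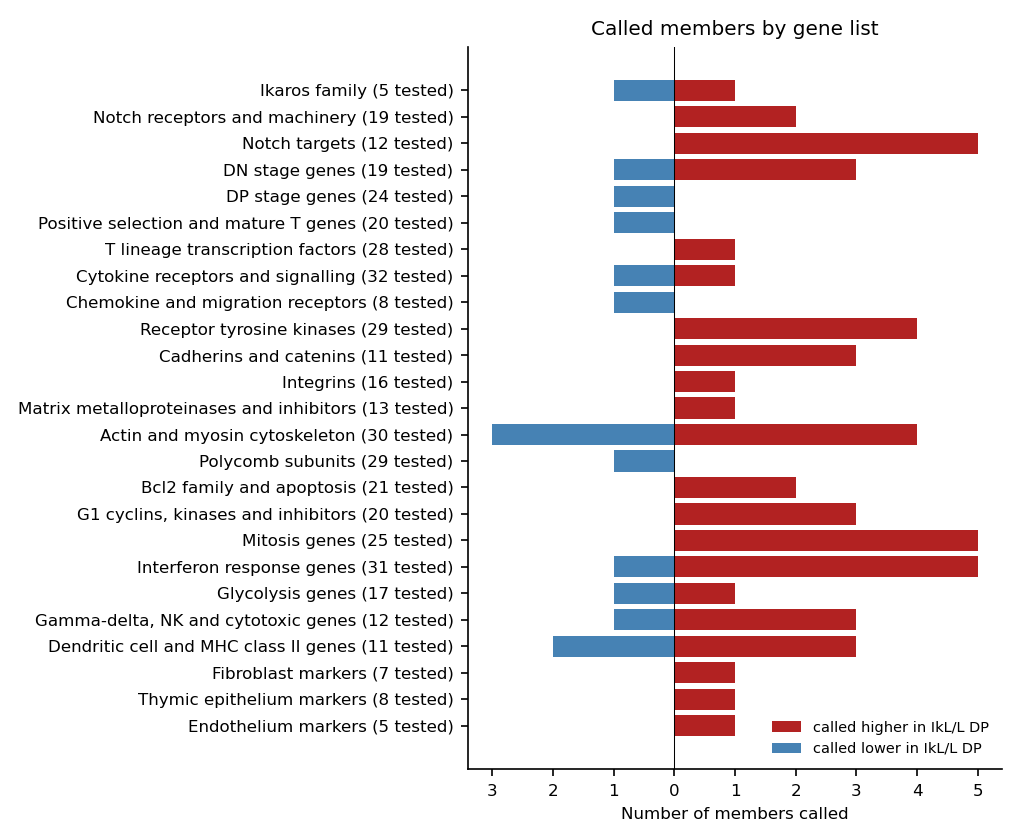
Number of members called higher (red, right) and lower (blue, left) in IkL/L DP cells for the gene lists with a call, with the number of tested members in brackets. Notch targets reach 5 of 12, mitosis genes 5 of 25 and interferon genes 5 of 31, and the actin list has calls on both sides. Of all tested genes 4.36% were called higher and 1.62% lower.

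Markers of other cells were in part below the array median. That median splits the probe sets of an array evenly, and 6545 of 18194 genes reached it on fewer than 2 of the 12 arrays. The B cell list held a bright member, Ighm, at 13.18 and 13.36 in WT and 13.46 and 13.28 in IkL/L. Of 12 macrophage markers 11 were below the array median on all 4 DP arrays, as were 10 of 16 granulocyte and monocyte, 6 of 14 B cell, 6 of 11 red cell, 11 of 17 fibroblast, 4 of 12 thymic epithelial and 7 of 12 endothelial markers. The tested members of the macrophage (1), granulocyte (7), B cell (10) and red cell (8) lists gave 0 calls in limma, with 0 and 0, 0 and 0, 1 and 1, and 1 and 0 higher and lower at an unadjusted p under 0.05. The stromal lists had 1 call each, of 7 fibroblast, 8 thymic epithelial and 5 endothelial genes tested, where 5.98% of all tested genes were called. Col1a2, a collagen chain gene, went from 5.02 and 4.76 to 6.39 and 6.03 (1.31, adjusted p = 0.000395), the keratin gene Krt18 from 4.75 and 5.02 to 6.90 and 6.13 (1.63), and the endoglin gene Eng from 6.06 and 6.54 to 7.33 and 7.27 (1.00). Their usual companions did not pass, such as Krt8 (5.33 and 5.43 against 5.02 and 5.13) and Pecam1 (5.44 and 5.40 against 5.45 and 5.48). The summed level of the fibroblast list was 9.13 and 9.10 in WT and 9.19 and 9.28 in IkL/L.

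Many of the genes called in DP cells were also called between the DN arrays. The calls are not independent, because 1 fit over all 12 arrays gave each gene the same spread at every stage. A gene with a small spread is called more readily at all of them, so part of an excess over all genes is built in. Replicate 2 of IkL/L was low in Y-linked signal at all 3 stages, so the stages may also share mice. Of the 508 raised genes 138 (27.2%) were higher at DN3, where 2.08% of all genes were called higher, and 192 (37.8%) at DN4, where 4.40% were. Seen from the DN side, these were 57% of the 242 genes higher at DN3 and 37.4% of the 513 higher at DN4. Of the 189 lowered genes 55 (29.1%) were lower at DN3 (2.21% of all) and 48 (25.4%) at DN4 (2.48%). At all 3 stages 121 genes were called higher, 23.8% of the 508, while 1.49% of all genes were called higher at both DN stages. The same held for 29 lowered genes, 15.3% of the 189, against 0.867% of all genes. Mmp14, Ppic, Myh10, Trim2, Dock1, Ctnnd1, Irs1 and Pmaip1 were among the shared rises. Mmp14 differed by 3.23 at DN3, 3.53 at DN4 and 4.14 in DP cells, and Myh10 by 2.59, 3.00 and 3.21. Epsti1 (-1.96, -1.35 and -1.95) and Gpr174 (-1.54, -1.48 and -1.77) were among the shared falls. Called at neither DN stage were 287 raised (56.5%) and 113 lowered genes (59.8%), against 91.2% of all tested genes. Without a call, a difference may still have the same sign. It was above 0 at DN3 and DN4 for 78.1% and 86.0% of all 508 raised genes. For the 189 lowered genes the shares were 13.2% and 20.1%, and for all tested genes 43.3% and 49.7%.

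Whether the genotype difference itself was unlike that of the DN stages was tested by an interaction. It differed between DP and DN3 for 202 genes (1.73%), with 161 more positive (1.38%) and 41 more negative (0.352%) in DP, and between DP and DN4 for 115 genes (0.987%), with 77 (0.661%) and 38 (0.326%). Of the 508 raised genes 49 (9.65%) were more positive in DP than at both DN stages, against 58 of all 11649 tested genes (0.498%). Of the 189 lowered genes 10 (5.29%) were more negative than at both, against 19 of all (0.163%). The DP arrays that chose these genes also enter the interaction, so an excess over all genes is partly built in. Syt14 differed by 3.55 in DP cells and by 0.21 and 0.31 at DN3 and DN4, with interactions of 3.34 ± 0.20 (adjusted p = 7.84e-06) and 3.24 ± 0.20 (3.28e-05). Ddr1 (3.00 in DP, 0.10 and 0.08 at the DN stages) and Liph (2.56, 0.24 and 0.39) had the same form. Syt14 and Liph lay below the array median on every array except the 2 IkL/L DP arrays. They are among the 11 raised genes that passed the filter through those arrays alone. Their DN differences thus compare signals that may be mostly background, and do not show that the DN stages lack an effect. Sertad4 and Mpzl2 rose at all 3 stages but most in DP: Sertad4 by 1.43, 2.94 and 5.14, and Mpzl2 by 1.16, 2.41 and 4.22, with both interactions called for each. Notch1 (0.06, 0.84 and 1.50) and Ptcra (-0.62, 0.39 and 1.63) passed the interaction with DN3 (adjusted p = 0.00615 and 0.00125) and not that with DN4 (0.184 and 0.06). Gzma (0.26, 0.08 and 2.11) and Usp18 (0.29, 0.27 and 1.93) passed both.

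Several immune genes belonged to the 49, and those given here were chosen after their values were seen. Tnfsf11, the gene of the cytokine RANKL, read 4.83 and 4.85 in WT DP and 6.23 and 6.96 in IkL/L DP, a difference of 1.76 against 0.05 at DN3 and -0.48 at DN4. Alox5ap, of leukotriene synthesis, read 5.89 and 6.17 against 8.51 and 8.38 (2.41, with 0.40 and 0.94 at the DN stages). Sema4a, a semaphorin gene, read 6.55 and 6.21 against 7.83 and 8.33 (1.70, with -0.16 and 0.02). The 10 lowered genes included Slc6a19, Rufy2, Gramd3, Ftx, Cacna1e and Cd1d2, a CD1d gene that read 7.45 and 7.97 in WT and 6.27 and 6.34 in IkL/L DP and differed by -0.10 and -0.04 at DN3 and DN4. Cd1d2 is a near copy of Cd1d1, so its probes may read both.

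For 14 genes the called directions were opposite in DP and a DN stage, which was rarer than over all tested genes. Of the 508 raised genes 12 (2.36%) were called lower at DN3 or DN4, where 3.82% of all tested genes were. Of the 189 lowered genes 2 (1.06%) were called higher at DN3 or DN4, where 4.99% of all were. Ddc, the aromatic amino acid decarboxylase gene, read 4.33 and 4.56 in WT DP and 6.12 and 5.39 in IkL/L DP (1.31), while it was lower in IkL/L at DN3 (6.52 and 6.97 against 4.56 and 4.40, -2.27) and at DN4 (-1.57). Erbb3 rose by 1.16 in DP and fell by 0.68 at DN3, with interactions of 1.84 (adjusted p = 0.000492) and 1.41 (0.00462). Pdcd1, the gene of the inhibitory receptor PD-1, read 5.66 and 5.91 in WT DP and 6.81 and 7.13 in IkL/L DP (1.19), and 8.89 and 8.89 against 8.08 and 7.95 at DN4 (-0.87). H2-Q2, a class Ib gene with close relatives that its probes may also read, was at -0.70 in DP and 1.59 at DN3, and its DP call (adjusted p = 0.0485) was lost without any of the 4 DP arrays, at 0.118, 0.13, 0.19 and 0.176.

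The counts of these interactions moved with single arrays. The count against DN3 was 81 without WT DN3 replicate 1, 103 without WT DN3 replicate 2, 124 without WT DP replicate 1, 134 without IkL/L DN3 replicate 2, 106 without IkL/L DP replicate 2 and 362 without IkL/L DN3 replicate 1. The count against DN4 was 54 and 36 without WT DN4 replicate 1 and 2, 50 and 45 without IkL/L DN4 replicate 1 and 2, 76 without WT DP replicate 1, 49 without IkL/L DP replicate 2, and 205 without either IkL/L DN3 array. Without the 3 IkL/L arrays low in Y-linked signal they were 90 (45 more positive and 45 more negative) and 38. With the replicate number as a block within each genotype, chosen after seeing the data because WT arrays with the same number deviated together across stages, they were 294 and 231, and held all 202 and all 115.

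**Figure D5:**
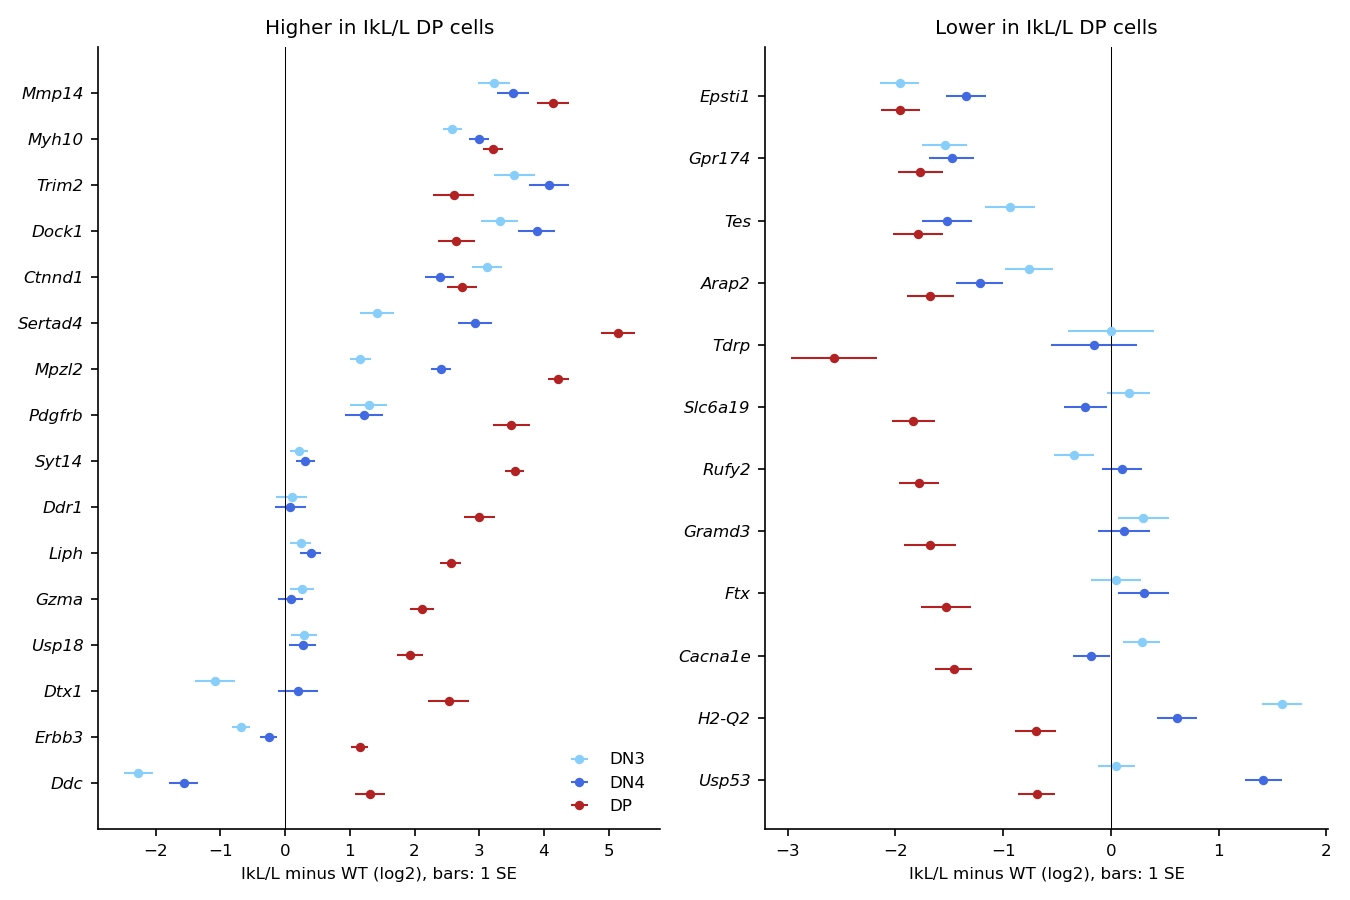
IkL/L minus WT (log2, bars 1 SE) at DN3, DN4 and DP for genes called higher (left) and lower (right) in IkL/L DP cells. Mmp14 and Epsti1 are alike at the 3 stages, Syt14 and Slc6a19 depart from 0 in DP cells, and Ddc (1.31 in DP, -2.27 at DN3) changes sign. Syt14 and Liph were below the array median on all DN arrays.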

How the data were processed

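RNA of sorted thymocytes was measured on 12 Affymetrix arrays, 2 for each of 6 groups. Per the labels' protocols, biotin-labelled cRNA was made with 2 rounds of amplification, in several labelling series that the labels do not assign to samples. The authors deposited log2 values made with RMA, per the submitters' processing notes. The RMA version and whether all arrays shared a run are not given in the sources used here. RMA subtracts background and equalises array distributions, which compresses low signals. Arrays have no read depth, and their number bounds the precision.

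The platform annotation gave 1 gene symbol to 34958 of 45099 probe sets. It gave several to 932 and no symbol to 9209, which were left out. The gene ID of 34754 matched the reference gene table (GRCm38.p6). Each of 18194 genes was read from its probe set with the highest mean, and 11649 with at least 2 of 12 arrays at or above the array median entered the test. It used limma 3.58.1 (R 4.3.3; 1 mean per group over all 12 arrays, 6 residual and 5.67 prior degrees of freedom), at a Benjamini-Hochberg adjusted p under 0.05. SE is the moderated standard error. The fit was tested on simulated data.

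The members and the 36 gene lists were chosen with earlier results of these data known. Named genes are Ikzf1, the called genes with the 30 largest positive and 20 largest negative DP differences whose genotypes do not overlap, the 10 largest interactions in each direction, called list members (up to 4 of the brightest in lists without calls) and cell type markers, leaving out unnamed transcripts. The replicate numbers did not pair the genotypes (the deviations of same-numbered WT and IkL/L DP arrays correlated at 0.06). Across stages, same-numbered arrays correlated at 0.15 to 0.32 within WT and at 0.01, 0.09 and 0.49 within IkL/L. Alternatives covered the filter, probe sets, centring, a second quantile normalization, the prior, a replicate block, also within genotype (added after seeing the data), the DP arrays alone, the actin 3' to 5' difference and leaving out arrays.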

Additional observations from a re-analysis of the deposited data

Results flagged for a closer look

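The tests for a genotype effect that differs between stages called 202 genes between DP and DN3 and 115 between DP and DN4, and the named ones are listed here as the DP difference minus the DN difference on the log2 scale.

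Against DN3, the effect was more positive in DP cells for Sertad4 (3.72), Dtx1 (3.61), Ddc (3.58), Cdh1 (3.49), Syt14 (3.34), Mpzl2 (3.06), Scin (2.95), Bst1 (2.91), Ddr1 (2.90) and Ncf4 (2.77). Cdh1, the E-cadherin gene, and Scin, an actin-severing gene, fell at DN3 (-3.61 and -3.08) and were at background in DP cells of both genotypes, so their values come from the DN3 side. The call of Bst1 ended when WT DN3 replicate 1 was left out (adjusted p = 0.0556 by limma), and its DP difference of 1.36 became 0.63 (0.118) without IkL/L DP replicate 2. The effect was more negative in DP cells for Lmcd1 (-5.24), Cttnbp2nl (-2.94), Tdrp (-2.57), Prom1 (-2.36), H2-Q2 (-2.29), Wnt8b (-2.20), Slc4a5 (-2.06), Rassf4 (-2.04) and Slc6a19 (-2.0). Lmcd1 rose by 5.45 at DN3 and by 1.57 at DN4 and read 4.41 and 4.18 against 4.49 and 4.52 in DP cells, and Cttnbp2nl, Prom1, Slc4a5 and Rassf4 also rose at DN3 and were not called in DP. Wnt8b was higher in IkL/L at DN3 (1.47) and had a DP difference of -0.73 that was not called (adjusted p = 0.0995). Tdrp passed narrowly (0.044) and was lost without WT DN3 replicate 1 (0.128), WT DN3 replicate 2 (0.183), IkL/L DN3 replicate 1 (0.0546), IkL/L DN3 replicate 2 (0.0956), IkL/L DP replicate 1 (0.162), either WT DN4 array (0.0839) or either IkL/L DN4 array (0.0709).

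Against DN4, the effect was more positive for Syt14 (3.24), Ddr1 (2.91), Ddc (2.88), Trgv1 (2.67), Dtx1 (2.33), Cenpv (2.33), Nkg7 (2.30), Pdgfrb (2.28) and Ncf4 (2.25), and more negative for Wnt8b (-2.29), Usp53 (-2.10), Rufy2 (-1.89), Slc4a5 (-1.87), Ftx (-1.83), Med12l (-1.81), Gramd3 (-1.80) and Rpl12 (-1.77). Nkg7, a cytotoxic granule gene, fell by 2.29 at DN4 and read 5.31 and 5.09 against 5.07 and 5.34 in DP cells. Leaving out WT DN4 replicate 2 ended the calls of Trgv1 (0.0925), Dtx1 (0.183), Cenpv (0.187), Pdgfrb (0.154), Ncf4 (0.104), Ftx (0.136), Gramd3 (0.182) and Rpl12 (0.203). Leaving out IkL/L DP replicate 2 ended those of Trgv1 (0.0785), Dtx1 (0.0546), Cenpv (0.138), Pdgfrb (0.103), Ncf4 (0.127), Ftx (0.0726) and Rpl12 (0.181). Syt14, Ddr1, Ddc, Nkg7, Wnt8b, Slc4a5 and Med12l kept their calls against DN4 under all alternatives run.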

How the results depend on the processing

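None of the 143 named differences called changed sign under any alternative run, while 27 of the 52 named DP differences that were not called did. The DP count of 697 was 344 with the DP arrays alone and 1048 with the actin 3' to 5' difference as a covariate, and ranged from 392 to 825 when single arrays were left out. The count between DP and DN3 (202) was 127 with the filter at the 75th percentile and 90 without the 3 IkL/L replicate 2 arrays, and ranged from 81 to 362 without single arrays. The count between DP and DN4 (115) was 75 with the stricter filter, 186 with the actin covariate and 38 without those 3 arrays, and ranged from 36 to 205. A second quantile normalization moved the median DP minus DN4 difference of all genes from 0.04 to 0.14 and its split from 77 more positive and 38 more negative to 127 and 34. With the replicate number as a block, which does not pair the genotypes, the counts were 689 (649 shared), 170 and 90. With a replicate block within each genotype, which follows the correlation between stages, they were 977, 294 and 231, and the first of these leaves out the spread between the blocks. Of 103 named genes called in DP, 72 kept the call under all the alternatives in which they were tested, and the DP arrays alone ended 26 calls. The cause was not tested. Genes near background cannot show a further fall, 2 arrays a group limit every call, and a labelling batch was not tested because the labels do not assign it.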
